A study of Mus musculus with 4 samples.

Results

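The genes described here are the Akt kinases and the Phlpp phosphatases, with the mTOR kinase and its partners downstream of Akt. The 7 genes, of 21887 protein-coding genes in the gene table, were chosen by name for their place in the pathway, with earlier results of these data known. They are the kinases Akt1, Akt2, Mtor and Rps6kb1, the scaffold Rptor, and the phosphatases Phlpp1 and Phlpp2. For each gene, every peak of H3K27ac, the histone acetylation of active promoters and enhancers, was taken that overlapped the gene body or the 10 kb on either side of it (the neighbourhood). The data came from primary chondrocytes of C57Bl/6 mice kept as micromass cultures, dense spots of cells that lay down cartilage matrix. In the first culture a Cre-recombinase adenovirus had been added and the labels call it hdac3-knockout. The other culture received a GFP control adenovirus and is labelled wild-type; both cultures were therefore transduced, and neither the age of the mice nor any floxed allele is stated in the labels. There was 1 H3K27ac library per culture and no replicate, so every difference below is between 2 libraries and carries no p-value. The peak lists measure neither RNA nor protein of Hdac3, and the deletion could not be checked in them.

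Akt kinases are recruited to the membrane by the lipid product of PI3K and are switched on there by phosphorylation. The Phlpp phosphatases remove one of these activating phosphates and so turn Akt off, whereas mTOR, bound to the scaffold Raptor (gene Rptor), acts downstream of Akt on the ribosomal S6 kinase encoded by Rps6kb1. In cartilage this pathway supports chondrocyte growth and matrix synthesis, and Phlpp1 has been described as a gene that Hdac3 keeps low in chondrocytes. The question put to the peak lists was whether the acetylated regions of the kinase and phosphatase loci differed between the Cre and the GFP culture.

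The Cre list held 13130 peaks and the GFP list 12873, with a median of 12 fragments at the summit in both. The number of fragments at a summit (the summit pileup) was solved from the authors' fold and −log10 p-value of each peak, and the value expected by the caller was most often 1.01 fragments for Cre and 0.949 for GFP. The lowest summit in either list had 7 fragments. All 12 chondrocyte marker genes, among them Col2a1, Acan and Sox9, had a peak within 10 kb in both libraries, whereas 3 of 18 marker genes of fibroblasts, osteoblasts, macrophages, endothelium, muscle and adipocytes had one in either library. The markers of endothelium, muscle and adipocytes had no peak. Summed over the chondrocyte markers, peaks covered 54795 bp in the Cre library (458 to 13863 bp a gene) and 62420 bp in the GFP library (1183 to 14443 bp a gene), and over the other markers 295 bp in Cre and 2030 bp in GFP. Their part in the differences below was not tested, and in such bulk cultures fewer acetylated cells and less acetylation per cell cannot be told apart.

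The promoter sequences of the loci are shown because they hold the start-site peaks, or, at the phosphatases, the lack of one. Each line gives the 250 bases before a listed start from RefSeq (GRCm38.p6), 5′ to 3′ on the strand of the gene. In the first line, for Rps6kb1 (chr11:86544808-86545057, minus strand), capitals mark the bases inside the Cre peak.
Rps6kb1: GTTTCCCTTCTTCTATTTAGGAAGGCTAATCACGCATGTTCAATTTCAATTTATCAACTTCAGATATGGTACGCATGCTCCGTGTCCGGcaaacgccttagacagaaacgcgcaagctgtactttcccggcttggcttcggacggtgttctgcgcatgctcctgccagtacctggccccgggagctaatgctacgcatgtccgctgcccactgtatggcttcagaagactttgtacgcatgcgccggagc
In the next line, for the first start of Akt2 (chr7:27591302-27591551, plus strand), capitals mark the bases inside the GFP peak; the Cre peak covers 122 of these bases and the GFP peak 166.
Akt2 first start: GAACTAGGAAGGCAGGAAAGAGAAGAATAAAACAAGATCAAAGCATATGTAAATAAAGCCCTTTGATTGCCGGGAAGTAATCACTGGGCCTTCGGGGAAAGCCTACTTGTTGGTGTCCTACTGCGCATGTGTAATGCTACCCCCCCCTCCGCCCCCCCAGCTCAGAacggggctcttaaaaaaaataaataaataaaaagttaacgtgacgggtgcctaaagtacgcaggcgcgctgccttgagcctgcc
The second listed start of Akt2 (chr7:27596580-27596829, plus strand) has capitals for bases inside a GFP peak and lies in no Cre peak.
Akt2 second start: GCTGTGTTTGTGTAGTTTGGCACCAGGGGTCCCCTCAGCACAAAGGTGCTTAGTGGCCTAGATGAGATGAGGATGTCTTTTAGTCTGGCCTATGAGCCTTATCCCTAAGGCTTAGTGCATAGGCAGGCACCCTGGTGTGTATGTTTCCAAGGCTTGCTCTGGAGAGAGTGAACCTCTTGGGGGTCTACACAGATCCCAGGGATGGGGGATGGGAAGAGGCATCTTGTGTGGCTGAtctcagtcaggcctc
At Rptor (chr11:119602655-119602904, plus strand) capitals mark bases inside the Cre peak, and no GFP peak covers any of them.
Rptor: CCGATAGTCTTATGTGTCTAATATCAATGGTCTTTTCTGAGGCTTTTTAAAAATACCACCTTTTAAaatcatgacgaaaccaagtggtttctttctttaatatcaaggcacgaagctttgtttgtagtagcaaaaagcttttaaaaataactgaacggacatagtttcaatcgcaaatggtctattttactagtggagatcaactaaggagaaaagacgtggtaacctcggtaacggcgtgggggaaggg
The phosphatase starts, Phlpp1 (chr1:106171619-106171868, plus strand) and Phlpp2 (chr8:109868353-109868602, plus strand), lie in no peak of either library. Capitals in their lines mark GC boxes (GGGCGG on either strand).
Phlpp1: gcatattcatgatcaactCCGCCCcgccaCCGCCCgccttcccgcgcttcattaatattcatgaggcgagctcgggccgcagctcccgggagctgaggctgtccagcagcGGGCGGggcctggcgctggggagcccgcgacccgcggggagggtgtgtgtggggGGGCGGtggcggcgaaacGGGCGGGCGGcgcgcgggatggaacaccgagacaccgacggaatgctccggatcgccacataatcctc
Phlpp2: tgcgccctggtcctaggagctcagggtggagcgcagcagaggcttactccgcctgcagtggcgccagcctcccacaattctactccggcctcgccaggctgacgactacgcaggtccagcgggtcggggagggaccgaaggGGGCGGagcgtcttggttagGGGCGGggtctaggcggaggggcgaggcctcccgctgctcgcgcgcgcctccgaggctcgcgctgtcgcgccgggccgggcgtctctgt

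Most H3K27ac peaks were at 1 of the 7 loci, Akt2, and there the Cre culture had fewer peaks than the control. Over all 7 neighbourhoods the Cre list had 11 peaks covering 3674 bp and the GFP list 19 peaks covering 5573 bp, a Cre share of 39.7% of the covered length. Akt2 alone held 7 of the Cre and 17 of the GFP peaks. Without Akt2 the Cre library had 4 peaks over 994 bp and the GFP library 2 peaks over 421 bp, a Cre share of 70.2%, so the balance of the group turned on that locus.

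**Figure D1:**
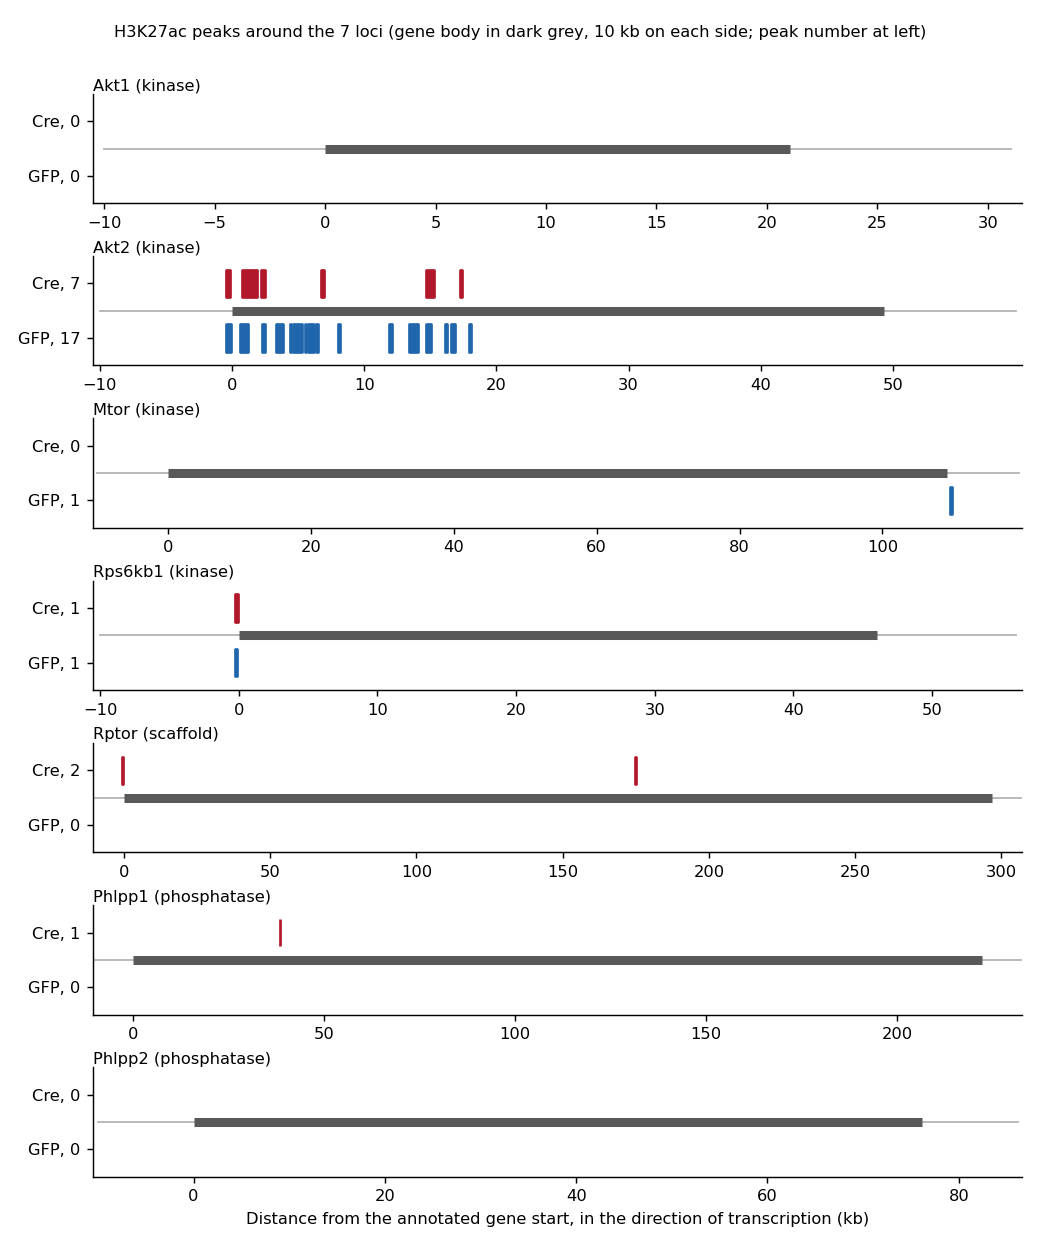
H3K27ac peaks around each of the 7 loci, in kb from the annotated gene start in the direction of transcription. Red marks above the gene are Cre peaks, blue marks below it are GFP peaks (drawn with a minimum width), and the number of peaks stands beside each library; the 7 Cre and 17 GFP peaks of Akt2 lie at its start and in the first part of the gene, and Akt1 and Phlpp2 are empty.

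The kinase loci held most of the peaks and leaned to the control culture, while the phosphatase loci had a single Cre peak. The 4 kinase neighbourhoods, 305.5 kb in all, had 8 Cre peaks covering 2867 bp and 19 GFP peaks covering 5573 bp, 33.97% of the covered length being in Cre. By peak number the Cre share was 29.6% (exact 95% interval 13.8 to 50.2), which takes in an even split. The phosphatase neighbourhoods, 338.5 kb in all, had 1 Cre peak covering 148 bp and no GFP peak.

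Per kb of neighbourhood, peaks covered 9.39 bp of the kinase loci in Cre and 18.2 bp in GFP. The phosphatase loci had 0.437 bp per kb in the Cre library and none in the GFP library. This contrast was again carried by Akt2: the other 3 kinase loci had 0.792 bp per kb in Cre and 1.78 in GFP. These values rest on 1 Cre and 2 GFP peaks. Rps6kb1 had 187 bp in Cre and 186 bp in GFP, so the difference is the 1 GFP peak of 235 bp past the end of Mtor. No test of kinase against phosphatase loci was made, since genes are not replicates of a culture and the phosphatase loci held 1 peak.

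Having any peak was not unusual for genes of these libraries. Of all protein-coding genes, 32.4% had a peak within 10 kb in either list, and 5 of the 7 members did. These 2 figures were not matched for length. The members' neighbourhoods were 41.1 to 316.7 kb long, against a mean of 68.0 kb over all protein-coding genes. Among the 7081 genes with a peak, 34.3% were covered over at least 1.5 times more length in Cre and 36.5% in GFP. Of the 5 members with a peak, Rptor and Phlpp1 passed this fold toward Cre, Akt2 and Mtor toward GFP, and Rps6kb1 neither. The calls of Rptor, Phlpp1 and Mtor rest on 1 or 2 peaks, so their split is near the background of genes that lean either way.

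**Figure D2:**
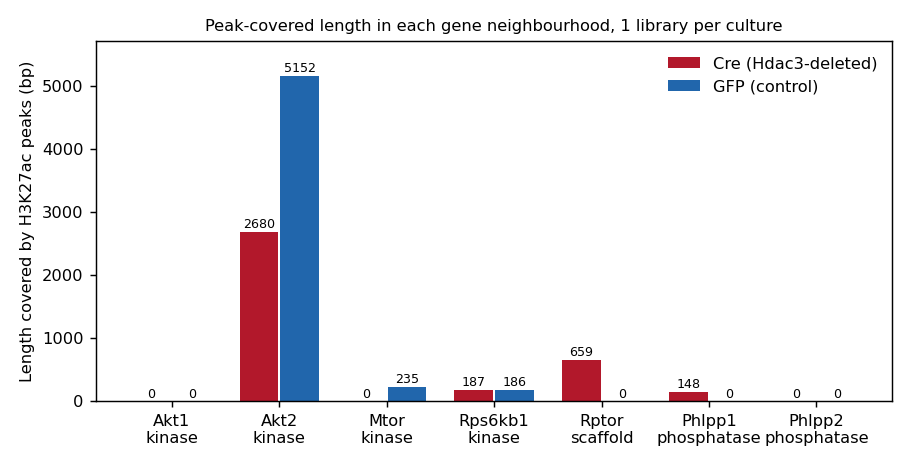
Length covered by H3K27ac peaks (bp) in the neighbourhood of each gene, with 1 bar per library, Cre in red and GFP in blue, and no replicate. For Akt2 the Cre bar reaches 2680 bp and the GFP bar 5152 bp, and no other bar passes 659 bp.

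Akt2, encoding the Akt isoform best known for insulin action (chromosome 7, 27591552 to 27640826, plus strand, 49.3 kb, 4 listed starts), had a broad acetylated stretch in both cultures. It had 7 peaks covering 2680 bp in the Cre library and 17 peaks covering 5152 bp in the GFP library, 1.92 times more in the control. All of them lay between positions -476 and 18061 bp from the first start, and the last 31.2 kb of the gene held none. Within their own span, peaks covered 15.01% of the stretch in Cre and 27.8% in GFP. By total covered length, Akt2 ranked at place 101 of the 7081 genes with a peak, and by the difference toward the control at place 19.

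Few genes with so many peaks leaned as far toward the control. Of 180 genes with 20 or more peaks over both lists, 23.3% were covered at least 1.5 times more in GFP and 15% in Cre, and 15 of them, 8.33%, had a Cre share at or below the 34.2% of Akt2. These genes can share neighbourhoods and peaks, so they are not independent of each other. The 3 genes whose pair of covered lengths was nearest to that of Akt2, on the scale log2(bp + 100) over the 2 libraries, were Ston1, Serpinh1, the collagen chaperone gene, and Ahnak. Ston1 had 2577 bp in Cre and 5212 bp in GFP, Serpinh1 had 2431 bp in Cre and 4952 bp in GFP, and Ahnak had 2911 bp in Cre and 5542 bp in GFP.

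At the sites of Akt2 called in both libraries, summits did not differ beyond counting error. At the first start, the Cre peak (27591084 to 27591423) had 14 fragments at the summit (exact Poisson 95% interval 7.65 to 23.5), and the GFP peak (27591076 to 27591467) had 17 (9.90 to 27.2). The Cre peak lay wholly inside the GFP peak, with summits 132 bp apart. About 1 kb into the gene both had 13 fragments, over 364 bp of peak in Cre and 596 bp in GFP.

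At 2308 bp the Cre peak had 16 fragments (9.15 to 25.98) and its GFP partner 13 (6.92 to 22.2). At 14773 bp the Cre peak had 15 (8.40 to 24.7) over 645 bp, and the GFP peak 9 (4.12 to 17.1) over 383 bp. The intervals overlapped at all 4 sites. The 4 summits summed to 58 fragments in the Cre (44.0 to 74.98) and 52 in the GFP library (38.8 to 68.2), and divided by each library's commonest expected pileup they came to 57.5 in Cre and 54.8 in GFP.

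**Figure D3:**
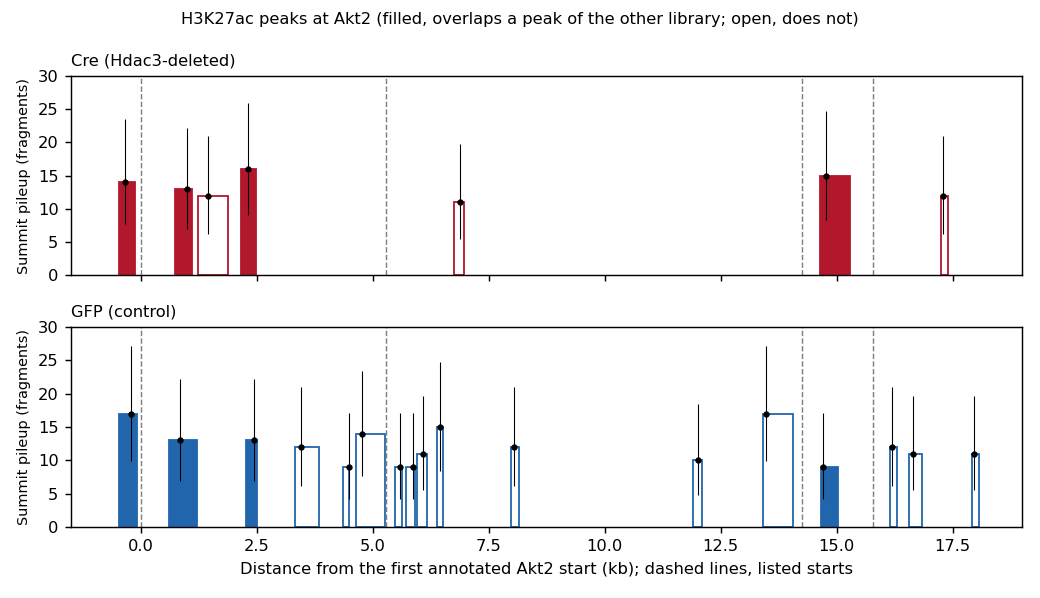
Summit pileup (fragments) of each Akt2 peak against its distance from the first start (kb), Cre above and GFP below; bar width is the peak's width, black lines are exact Poisson 95% intervals and dashed lines the 4 listed starts. Filled bars overlap a peak of the other library: 4 in each, with 13 to 16 fragments in Cre and 9 to 17 in GFP, while 13 open bars in GFP stand against 3 in Cre.

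The remaining Akt2 peaks were called in 1 library each. A site entered the shared set only by passing the caller's threshold in both libraries, so the similar summits there were partly fixed by that choice. Of peaks without a partner, the Cre list had 3, covering 1000 bp, with 11, 12 and 12 fragments, and the GFP list 13, covering 3542 bp, with a lowest of 9, a median of 11 and a highest of 17 fragments. From 3 to 7 kb after the first start the Cre library had 1 peak of 214 bp and the GFP library 7 peaks over 1981 bp, with 9 to 15 fragments. One of these GFP peaks (27596187 to 27596814, 628 bp, 14 fragments) reaches to 16 bp before the second listed start, from which the nearest Cre peak is 1467 bp away.

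From 7 to 13 kb there were 2 GFP peaks of 12 and 10 fragments and no Cre peak. From 13 to 19 kb the Cre library had 2 peaks over 792 bp and the GFP library 5 over 1600 bp. The tallest there in GFP (27604968 to 27605608, 17 fragments) ends 189 bp before the third listed start. These stretches were drawn after the positions were seen. From -1000 to 3000 bp the order was the other way, with 4 Cre peaks over 1674 bp and 3 GFP peaks over 1227 bp. The promoter peak within that stretch was not part of this reversal, being 340 bp wide in Cre and 392 bp in GFP. Nor was the shared site about 1 kb in, at 364 bp in Cre and 596 bp in GFP. The shared site at 2308 bp was 331 bp wide in Cre and 239 bp in GFP. The remaining Cre peak there (27592787 to 27593425, 639 bp, 12 fragments) overlapped no GFP peak but lay 22 bp from one.

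The Akt2 peaks ranged widely in strength and width. Of the 17 GFP peaks at Akt2, 4 had 9 fragments and 4 were 144 bp wide, the narrowest width in the GFP list, which 16.9% of its peaks share. Akt2 kept 7 Cre and 12 GFP peaks when −log10 q was required to reach 5, and 1 of each when it had to reach 10. These last peaks were at different sites, the Cre peak at 2308 bp and the GFP peak at the first start. Across the whole GFP list, 22.2% of peaks with 9 or fewer fragments overlapped a Cre peak, and 18.5% of such Cre peaks overlapped a GFP peak. Among peaks of 9 to 17 fragments, the range seen at Akt2, these shares were 37.3% for Cre and 38.1% for GFP, against 4 of 7 Cre peaks and 4 of 17 GFP peaks at Akt2. When a peak of the other culture within 1 kb was counted in place of an overlap, all 7 Cre and 12 of 17 GFP peaks at Akt2 had one, against 64.8% of the whole Cre and 67.4% of the whole GFP list. Akt2 also held wide peaks in both libraries, with 2 of 600 bp or more in each, a width that 3.27% of Cre and 3.51% of GFP peaks reach.

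Akt1, encoding the Akt isoform most widely tied to cell growth and survival (chromosome 12, 112653821 to 112674884, minus strand, 21.1 kb), lay in a neighbourhood without peaks in both cultures. The peak nearest to its outermost listed start was 17.1 kb away in the Cre library, with 10 fragments, and 18.3 kb away in the GFP library, with 12. The other 2 kinase genes had single peaks, both beside the start of another gene. Absence from a list means that no site passed the caller's threshold, not that the mark is absent.

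Rps6kb1, the S6 kinase gene (chromosome 11, 86498869 to 86544885, minus strand), had the tallest peak of all 7 loci, and it was called in both libraries. The Cre peak (86544969 to 86545155) had 34 fragments (23.5 to 47.5) over 187 bp, and the GFP peak (86544979 to 86545164) had 27 (17.8 to 39.3) over 186 bp. The peaks shared 177 bp, their summits were 38 bp apart and the counting intervals overlapped. By −log10 p-value the Cre peak stood above 98.96% of the Cre list and the GFP peak above 98.7% of the GFP list.

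This peak lies where 2 genes that run away from each other start. Its summit is at -179 bp from the annotated Rps6kb1 start in Cre and at -217 bp in GFP, and Tubd1, a delta-tubulin gene on the other strand, starts at 86544991, inside both peaks. The acetylation thus cannot be assigned to either gene. With 50 kb on each side, Rps6kb1 had 16 Cre peaks over 4152 bp and 8 GFP peaks over 2331 bp, and 10 of the Cre and 4 of the GFP summits lay inside the nearby Vmp1 gene.

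Mtor, the kinase of both mTOR complexes (chromosome 4, 148448582 to 148557685, plus strand, 109.1 kb), had no Cre peak and 1 GFP peak (148558090 to 148558324, 235 bp, fold 8.21, 15 fragments with an interval of 8.40 to 24.7). The peak was 109508 bp after the Mtor start, past the 3′ end of the gene, and ended before the start of Exosc10, an RNA exosome gene, at 148558419. The start of Mtor itself had no peak in either library: the nearest lay 177.3 kb away in the Cre and 109.5 kb away in the GFP library. A count of gene ends would list Mtor as marked in the control, but by its start it was unmarked in both cultures.

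Rptor, the gene of Raptor, which brings substrates to mTOR (chromosome 11, 119602905 to 119899591, plus strand, 296.7 kb), had 2 Cre peaks and no GFP peak. The first (119602415 to 119602720, 306 bp, fold 6.97, 13 fragments with an interval of 6.92 to 22.2) ended 185 bp before the start. The second (119777662 to 119778014, 353 bp, fold 5.48, 10 fragments) lay inside the gene, with its summit 174951 bp after the start. The nearest GFP peak was 110.6 kb from the start, and with 50 kb on each side there were 4 Cre peaks and still no GFP peak. The start peak stood above 69.3% and the inner peak above 26.7% of the Cre list.

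Phlpp1, the phosphatase gene named in work on Hdac3 (chromosome 1, 106171869 to 106394245, plus strand, 222.4 kb), had 1 Cre peak and no GFP peak. The Cre peak (106210198 to 106210345, 148 bp) lay inside the gene, 38449 bp from the start to its summit, with fold 5.48 and 10 fragments (4.80 to 18.4). It was 1 bp wider than the narrowest peak of the Cre list, stood above 26.7% of that list and had a −log10 q-value of 4.51. It did not meet any of the stricter thresholds tried (−log10 q of 5 or 10, 15 fragments, or the 5000 strongest peaks). The nearest GFP peak lay 457.9 kb from the start. Phlpp2, the second phosphatase gene (chromosome 8, 109868517 to 109944671, plus strand, 76.2 kb), had no peak within 50 kb on either side in either library. The nearest to its listed start was 259.5 kb away in Cre and 64.2 kb away in GFP.

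By start sites, 3 members were marked in the Cre list (Akt2, Rps6kb1 and Rptor) and 2 in the GFP list (Akt2 and Rps6kb1), counting peaks within 1 kb of a listed start. Rptor was the one member marked in a single list. Over all protein-coding genes, 9.64% had such a peak in both lists and 81.1% in neither, 4.32% being marked in Cre only and 4.9% in GFP only. The counts of 3 and 2 were the same with windows of 500 and 2500 bp.

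Overlap between the cultures at these loci was near that of the whole lists for Cre peaks and lower for GFP peaks. Of 11 Cre peaks, 5 overlapped a GFP peak (45.5%, exact 95% interval 16.7 to 76.6), against 40.7% of the whole Cre list. Of 19 GFP peaks, 5 overlapped a Cre peak (26.3%, 9.15 to 51.2), against 41.4% of the whole GFP list, which the interval takes in. Counting a Cre peak within 1 kb in place of an overlap, the share of GFP peaks was 68.4%, against 67.4% of the whole GFP list, so the lower value held for direct overlap and not for nearness. All but 1 of the overlapping pairs were at Akt2, and the other was at Rps6kb1.

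Some unmarked starts were rich in CpG, the dinucleotide that is dense in most broadly used promoters. In the 300 bases around a listed start, Phlpp1 had 42 CpG, the second start of Akt1 42 and Phlpp2 34, each more than in at least 92.3% of 32817 promoters, while the unmarked outermost start of Akt1 had 8 and that of Mtor 21. The marked starts had 19 at Rps6kb1, 13 at Rptor and 12 at the first start of Akt2, and the second start of Akt2 had none. Of the 2537 promoters with 34 or more CpG, 23.2% had a Cre and 24.4% a GFP peak within 1 kb, and of the 10447 with 12 to 33, 21.7% had a Cre and 23.1% a GFP peak; a peak in either list stood at 31.5% of the first class and 29.6% of the second. A promoter as rich in CpG as those of the phosphatases was thus unmarked more often than marked in both libraries. Promoters poorer in CpG were marked less often still. A peak in either list stood at 10.4% of the 2972 promoters with 8 to 11 CpG and at 3.51% of the 16861 with under 8.

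Of 9 motifs searched on both strands in these 300 bases, GGGCGG (GC box) occurred 6 times at Phlpp1, 2 times at Phlpp2, 5 times at the second Akt1 start and 2 times at Mtor. It occurred once at the first Akt2 start and at neither Rps6kb1 nor Rptor, and 35.6% of all promoters hold it. CCAAT occurred 4 times at Mtor and once at Phlpp2 and at the third Akt2 start, against 37.4% of promoters with a match. CCGGAAG, an ETS motif, was at Mtor alone among the members (8.86% of promoters). TATAAA, TGACGTCA (the cAMP response element), TGACTCA (AP-1), CACGTG (E-box), the NRF1 motif and AAGATGGCG (YY1) had no match in any member window; 13.6%, 1.79%, 5.2%, 7.15%, 0.966% and 1.40% of promoters hold them, in that order. The run CGCATG, picked after the sequence was read, stood 6 times in the Rps6kb1 window on either strand, overlapping matches included; 6.49% of promoters have at least 1 and 7 of 32817, Rps6kb1 included, have as many. These matches describe letters and not bound factors.

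A list of genes of the wider pathway leaned the other way from Akt2. Of 47 further genes in this PI3K, Akt and mTOR list, which includes the Hippo pathway kinase gene Stk4, 34 had a peak within 10 kb. The list had 105 Cre peaks over 26999 bp and 85 GFP peaks over 21752 bp, a Cre share of 55.4% of the covered length. Covered length was at least 1.5 times greater in the Cre library for 17 genes and in the GFP library for 6, against 34.3% and 36.5% of all genes with a peak. The median Cre share per gene was 59.0%, against 49.6% over all genes with a peak. The share of peak number, 55.3% (47.9 to 62.5), took in an even split, and the share of covered length was 53.0% without Stk4.

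The largest differences toward the Cre culture were at Stk4, encoding a Hippo pathway kinase, with 5450 bp in Cre and 2674 bp in GFP, and at Gsk3a, an Akt substrate kinase, with 1677 bp in Cre and 682 bp in GFP. Irs1, the insulin receptor adaptor, had 3287 bp in Cre and 2388 bp in GFP, a difference under 1.5 times. Ddit4, an inhibitor of mTOR signalling, had 1498 bp in Cre and 928 bp in GFP. Ppp2r2a, a subunit of the phosphatase PP2A, had 850 bp and Rps6, the ribosomal substrate of the S6 kinase, 655 bp in the Cre library, and neither had a GFP peak. Toward the control, Eif4b, a translation factor acted on by the S6 kinase, had 2464 bp in Cre and 3610 bp in GFP, and Cdkn1b, a cell cycle inhibitor, 2468 bp in Cre and 3183 bp in GFP; neither difference reached 1.5 times.

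**Figure D4:**
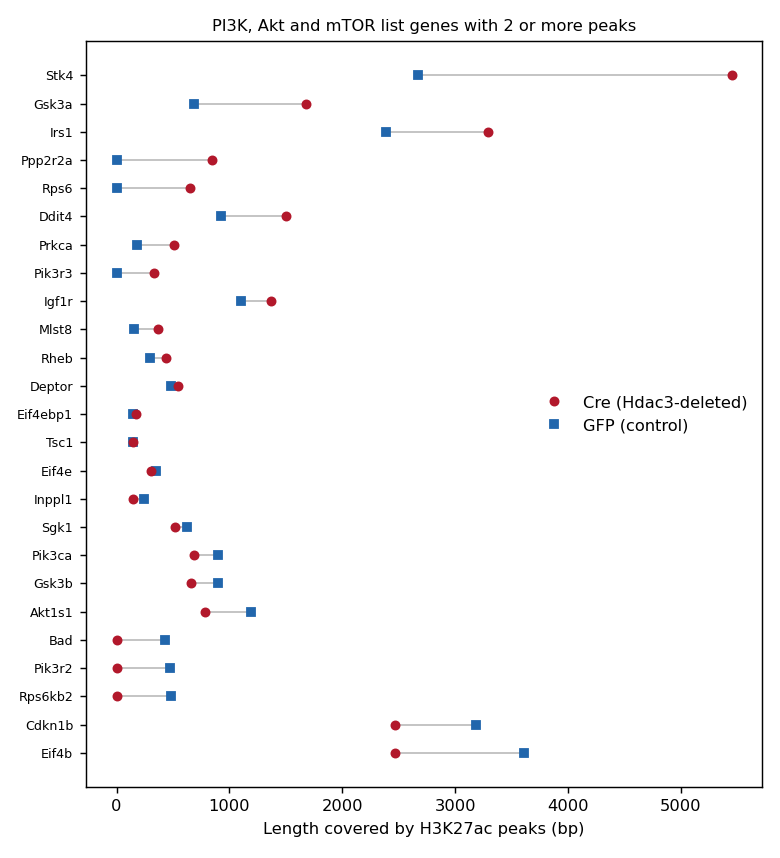
Length covered by H3K27ac peaks (bp) around the 25 genes of the PI3K, Akt and mTOR list that had 2 or more peaks over both lists, Cre as red circles and GFP as blue squares, ordered by the difference. Stk4, at 5450 bp in Cre and 2674 bp in GFP, has the widest gap, and most genes lie under 1000 bp in both.

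At the starts of these 47 genes, peaks were called in both lists at 13, only in Cre at 4 and only in GFP at 2. Over all protein-coding genes these classes held 9.64%, 4.32% and 4.9%, and counts as small as 4 and 2 are given as a description only. The 4 in Cre alone were Foxo4, a forkhead factor that Akt restrains (fold 7.97), Rps6 (7.47), Pik3r3, a regulatory subunit of PI3K (7.03), and Ppp2ca, the catalytic subunit of PP2A (5.98). The 2 in GFP alone were Pik3r2, another PI3K regulatory subunit (10.8), and Rps6kb2, the second S6 kinase gene (7.18). Each fold is the authors' and ranks a peak within its own list. Rictor, of the second mTOR complex, and Tsc2, which holds mTOR in check, had none in either culture.

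**Figure D5:**
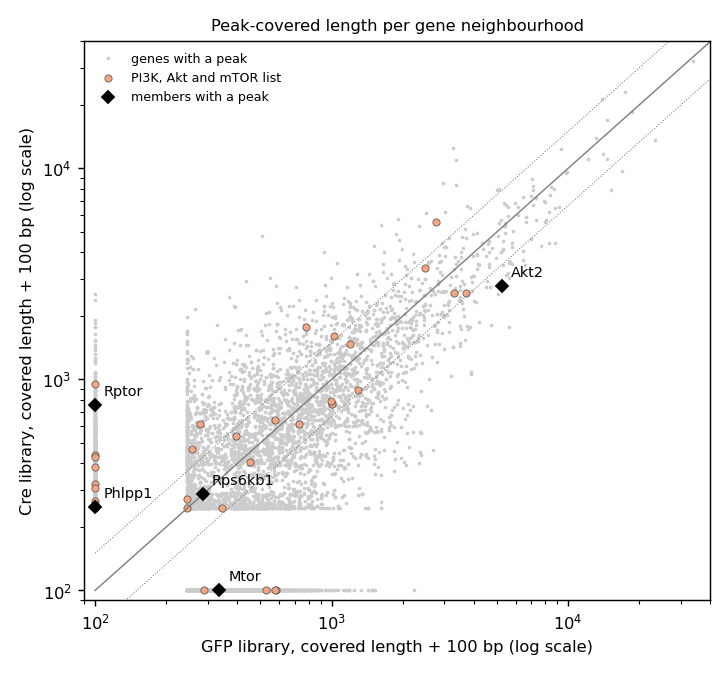
Peak-covered length per gene neighbourhood, Cre library on the vertical and GFP library on the horizontal axis, both as bp + 100 on a log scale; grey points are the 7081 genes with a peak, orange circles the pathway list and black diamonds the members. The solid line is equality and the dotted lines a difference of 1.5 times, drawn on the shifted scale; Akt2 (2680 bp in Cre, 5152 bp in GFP) lies below them and Rps6kb1 (187 bp in Cre, 186 bp in GFP) on the line.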

How the data were processed

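H3K27ac chromatin immunoprecipitation and sequencing was analysed for 1 Cre and 1 GFP library; 2 input libraries were not analysed here. Per the submitters' processing notes, the build was mm10 and the tools were SICER, Picard, BWA and bcl2fastq 1.8.4; the deposited lists have the name and columns of MACS2 output, and the sources used here do not give its settings or control. The authors called peaks per library. Each deposited peak has a score (10 times the −log10 q-value, cut to a whole number), a fold enrichment ratio, and a −log10 p-value and −log10 q-value at its summit. These are the authors' values and rank peaks only within a list.

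Here the fold and −log10 p-value were solved for the summit pileup with a Poisson tail, tested first on simulated data. Only whole-number pileups were tried. For 100% of peaks in both lists the best of them gave back the −log10 p-value within 0.001. The depth of each library is unknown, as the lists hold no read totals, and intervals cover counting error only. Genes, starts and promoters came from RefSeq tables of GRCm38.p6 (the same chromosomes as mm10), which hold no exons; all 7 members and all 47 pathway genes matched. A gene with no strand was searched at both ends. Peaks overlapped when sharing at least 1 bp. Shares have exact Clopper-Pearson and pileups exact Poisson 95% intervals. Python 3.11.15, pandas 2.3.3 and scipy 1.17.1 were used.

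The members, the gene lists and the settings were chosen with earlier results of these data known. Genes named are the members, genes at their peaks, the 8 pathway genes of largest difference, up to 8 per list with a start peak in that list alone, and the 3 genes most like Akt2; Rictor, Tsc2 and Vmp1 were added after their values were seen.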

Additional observations from a re-analysis of the deposited data

How the results depend on the processing

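The shares of covered length at the kinase, phosphatase and all 7 loci were recomputed under other settings. These were gene body alone, 50 kb on each side, stricter peak thresholds, merged peaks and peaks nearest to a member. The gene of largest difference was also left out. Overlap shares were recomputed with other overlap rules, start counts with other windows, and both at −log10 q of at least 5. For the pathway list only nearest peaks and leaving out Stk4 were tried, and motif matches had no other setting. Of 36 recomputed values, 34 moved no further than the bound, on that side, of the counting interval around the reported value (for counts, by less than 1.5 times), and 2 moved further; for a share of covered length the interval was that of the peak number. The Cre share of covered length over all 7 loci, 39.7%, was 70.2% without Akt2 and 49.8% with 50 kb on each side. With 50 kb, Akt2 stayed at 2680 bp in Cre and 5152 bp in GFP. Rps6kb1 rose from 187 to 4152 bp in Cre and from 186 to 2331 bp in GFP, with 10 Cre and 4 GFP summits inside Vmp1. Akt1 reached 747 bp in Cre and 687 bp in GFP, Rptor 1036 bp in Cre alone and Mtor 654 bp in GFP alone. The cause of the differences between the libraries was not tested. The share of GFP peaks counted as shared, 26.3%, was 68.4% when a Cre peak within 1 kb sufficed, against 67.4% of the whole GFP list. For the kinase loci the Cre share was lowest without Akt2, at 30.8%, on 1 Cre and 2 GFP peaks. It was highest at −log10 q of 10 or more, at 47.3%, on 2 peaks in each list. With 50 kb on each side it was 46.2%. For the phosphatase loci no peak was left at −log10 q cut-offs of 5 or 10, at least 15 fragments, the top 5000 peaks, or without Phlpp1. Those settings are not among the 36 values. The phosphatase values that are among them rest on the same single Phlpp1 peak, so they could not move and say nothing of stability. The pathway list's share, 55.4%, was 56.1% when each peak was given to its nearest gene alone, an alternative chosen after seeing the data. No paired analysis was possible because each culture had 1 library. The summits at the 7 loci, of 10 to 34 fragments in Cre and 9 to 27 in GFP, leave wide counting error. A peak missing from a list may lie just under the caller's threshold.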
